A study of Mus musculus with 8 samples.

Results

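The loci of 3 mouse genes, Thbs1, Ccn1 and Ccn2, were followed in maps of H3K4me3, the trimethylation of histone H3 at lysine 4 that marks active promoters, from E12.5 mouse brains. The peaks were those of each library that overlapped a fixed window on genome build mm9: chromosome 2 from 117930000 to 117956000 for Thbs1, chromosome 3 from 145306000 to 145318000 for Ccn1 (older symbol Cyr61) and chromosome 10 from 24308000 to 24322000 for Ccn2 (older symbol Ctgf). These windows held 5 of 19486 peaks in WT replicate 1, 6 of 19331 in WT replicate 2, 7 of 18048 in dKO replicate 1 and 10 of 17367 in dKO replicate 2. The genes were chosen by the width of their peaks in dKO against WT, read from these same lists. Peaks of the 4 lists that overlapped by at least 1 bp formed 8 regions in the windows, of 19714 in all.

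The WT group, 2 libraries, came from embryos labelled wild type that served as controls lacking Cre. The dKO group, also 2 libraries, carried a double knockout of Lats1 and Lats2 with Nestin-Cre, which acts mainly in neural progenitors, so that cells of the brain outside that lineage can keep the 2 kinases. All animals had a mixed strain background, and the controls differed from the dKO embryos in Cre as well as in Lats1 and Lats2, so these cannot be told apart. Chromatin was that of brain tissue with no sorting step in the labels, and a mark gained in more cells cannot be told apart from a mark gained on more gene copies of the same cells. The labels do not say whether replicates of a genotype shared a litter, and the spread between 2 libraries may be technical. The peak lists carry no gene names, so the tissue label was not checked against marker genes, and other Hippo pathway genes were not placed on these maps.

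Lats1 and Lats2 are kinases of the Hippo pathway that phosphorylate the transcriptional coactivators YAP and TAZ and keep them out of the nucleus. YAP and TAZ bind DNA through the TEAD transcription factors, and Ccn1 and Ccn2 are among the targets most often used to read out their activity. Both encode secreted matricellular proteins of the CCN family. Thbs1 encodes thrombospondin 1, another secreted matricellular protein, known for limiting blood vessel growth, for activating latent TGF-beta and, when released by astrocytes, for promoting synapse formation. H3K4me3 sits on nucleosomes around transcription starts, and at highly transcribed genes it often reaches further into the gene body.

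The sequence upstream of Ccn1 is shown because Ccn1 is a gene of the windows whose promoter the reference table holds. It was not placed on the peaks. It was taken from the RefSeq promoter table of build GRCm38.p6, chr3:145649986-145650235, minus strand, and those coordinates are not on the mm9 scale of the peaks. The table held 1 of the 3 genes. The 250 bases before the annotated start are written 5′ to 3′ on the strand of the gene, and capitals mark motif matches.
Ccn1: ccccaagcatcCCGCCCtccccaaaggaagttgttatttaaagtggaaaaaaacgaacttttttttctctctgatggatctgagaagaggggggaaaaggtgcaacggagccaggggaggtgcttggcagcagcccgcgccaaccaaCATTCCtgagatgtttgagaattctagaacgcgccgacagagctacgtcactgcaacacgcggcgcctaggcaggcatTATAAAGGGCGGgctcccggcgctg

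The searches covered both strands and allowed overlaps. The TEAD core GGAATG matched once, as its reverse complement CATTCC from 103 to 98 bases before the start, and 12.6% of the 32851 promoters in the table hold a match in the same length of sequence. A TATA box, TATAAA, lay from 25 to 20 bases before the start (12.4% of promoters). The GC box GGGCGG, a site for Sp1-type factors, directly followed it from 19 to 14 bases before the start, and its reverse complement lay from 239 to 234 (32.7% of promoters). The letters TGANTCA, the site of AP-1, and the CArG box of SRF were not found in this window (6.75% and 1.47% of promoters). The sequence was 54.8% G or C, against a median of 52.4%, and held 15 CpG dinucleotides, against a median of 6. It was thus a TATA-containing promoter with more CpG than 72.7% of those in the table.

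The mark covered more base pairs in both dKO libraries than in both WT libraries at each of the 3 genes. All 3 were chosen with results of this contrast known, so these values are a description and carry no test. At Thbs1 the peaks covered 834 bp in WT replicate 1, 940 bp in WT replicate 2, 2783 bp in dKO replicate 1 and 3003 bp in dKO replicate 2. The mean went from 887 ± 75.0 bp for WT to 2893 ± 156 bp for dKO (n = 2, SD), a ratio of 3.26. At Ccn1 the WT libraries had 2070 and 2340 bp and the dKO libraries 5204 and 3283 bp. The means of 2205 ± 191 bp and 4243.5 ± 1358 bp (n = 2, SD) gave a ratio of 1.92, with the dKO libraries themselves wide apart. At Ccn2 the WT libraries had 1192 and 969 bp and the dKO libraries 1758 and 1323 bp. The means there, 1080.5 ± 158 bp for WT and 1540.5 ± 308 bp for dKO (n = 2, SD), gave a ratio of 1.43. Ccn2 had the smallest ratio, and its lower dKO library exceeded its higher WT library by 131 bp, against 943 bp at Ccn1 and 1843 bp at Thbs1.

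The differences at Ccn1 and Ccn2 were smaller without dKO replicate 1. The difference in means was 2038.5 bp at Ccn1 and 460 bp at Ccn2 with all libraries, and 1078 and 242.5 bp without dKO replicate 1. At Thbs1 it was 2006 bp with all libraries and 2116 bp without dKO replicate 1.

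**Figure D1:**
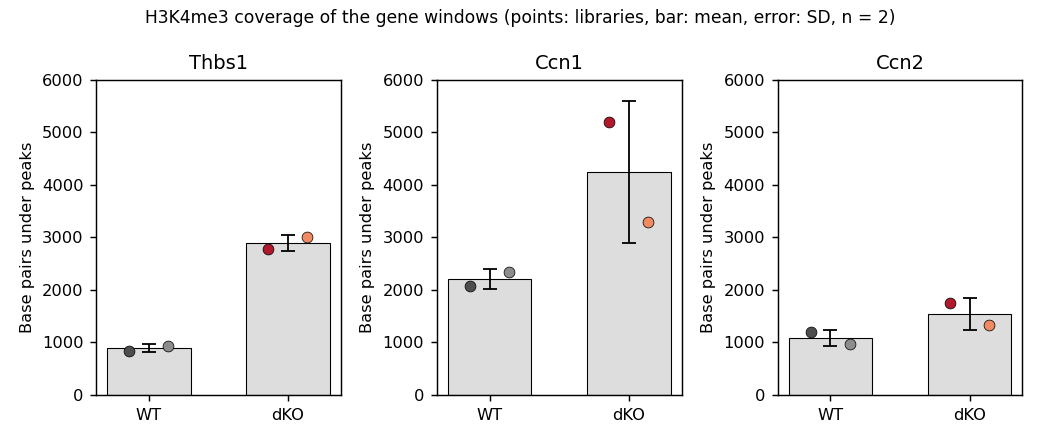
Base pairs under H3K4me3 peaks in each gene window (vertical axis, bp) for WT and dKO. Points are libraries (darker point replicate 1, lighter point replicate 2), bars are means and error bars are SD (n = 2). The dKO points lie above the WT points in all 3 panels, from 131 bp apart at Ccn2 to 1843 bp at Thbs1.

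The lists as a whole moved the other way. The WT lists covered 20.3 and 21.4 Mb and the dKO lists 19.3 and 17.3 Mb, and the sequencing depth behind them is unknown. Peaks of the 4 lists were joined into domains at gaps of up to 3000 bp, which gave 13258 domains with a peak in every library, and each gene window held 1 of them. Both dKO libraries exceeded both WT libraries in 462 of these domains (3.48%) and lay below both in 5548 (41.8%). With a library left out, the share that was higher in dKO ran from 6.55% without dKO replicate 1 to 18.9% without dKO replicate 2. That rule is looser, with a single library in a group, and the set of domains differs, so these shares cannot be set against 3.48%. The median domain had 0.913 times as many base pairs in dKO as in WT. By this ratio the Thbs1 domain was placed 1 of 13258 from the highest, the Ccn1 domain 5 and the Ccn2 domain 38. A ratio of at least 1.5 with both dKO libraries higher was found in 21 domains (0.158%), and Thbs1 and Ccn1 were 2 of them. With base pairs scaled to the total of each list, 29.0% of domains were higher in both dKO libraries and 0.460% were so by at least 1.5 times. On that scale the ratios were 3.73 at Thbs1, 2.17 at Ccn1 and 1.61 at Ccn2, against a median of 1.04, and the places were 1, 6 and 40. Being higher in both dKO libraries was thus common after scaling, and a ratio of 1.5 or more was rare on either scale.

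**Figure D2:**
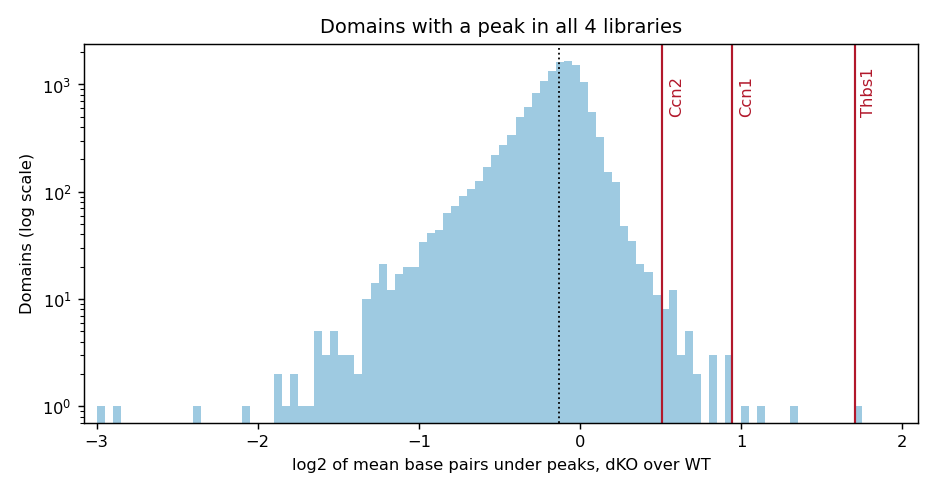
Distribution of the log2 ratio of mean base pairs under peaks, dKO over WT (horizontal axis), for the 13258 domains with a peak in all 4 libraries. The vertical axis counts domains on a log scale, the dotted line is the median (-0.13), and red lines are the gene domains at 0.51 (Ccn2), 0.94 (Ccn1) and 1.71 (Thbs1), all in the upper tail.

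The mark reached further in the direction of transcription in both dKO libraries at each gene. Distances are given from the start of the shared mark, the first base in the direction of transcription that all 4 libraries marked in the widest region of the window. At Thbs1 that region is the widest through the dKO libraries, since in WT the upstream peak was wider, so the choice of the region favours a gain on the gene side there. At Ccn1, 1098 bp of the 2038.5 bp difference lay in the widest region, and 322 and 618.5 bp lay in the 2 regions away from the gene body. The start of the shared mark is not an annotated transcription start, since no mm9 annotation was used. Ccn1 lies on the minus strand in the RefSeq table, so its gene body extends to lower coordinates. Thbs1 and Ccn2 are known to be transcribed towards higher coordinates.

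At Thbs1 the last marked base of the WT libraries lay 337 and 349 bp from that point and that of the dKO libraries 2158 and 3128 bp. The WT libraries thus differed from each other by few bases, and the mark in both dKO libraries ran 1809 bp or more beyond them. At Ccn1 the WT libraries reached 1508 and 1504 bp and the dKO libraries 2861 and 2640 bp, at least 1132 bp further. The WT libraries ended at 145311525 and 145311529, almost the same base, and the dKO libraries at 145310172 and 145310393. At Ccn2 the WT libraries reached 1074 and 820 bp and the dKO libraries 1758 and 1318 bp, at least 244 bp further. The mean reach of 947 ± 180 bp for WT and 1538 ± 311 bp for dKO (n = 2, SD) differed by 591 bp, or 371 bp without dKO replicate 1.

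Among the 14943 single regions marked in all 4 libraries, both dKO libraries passed both WT libraries at either end in 12.7%, and by at least 200 bp in 41 regions (0.274%). The latter distance was chosen after the values were seen. The widest regions of Thbs1, Ccn1 and Ccn2 were all among the 41, at places 1, 2 and 21 by that distance. The chromatin was sheared to about 300 bp on average, so the 244 bp at Ccn2 was shorter than a fragment and the distances at Thbs1 and Ccn1 were several fragments long.

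At the other edge of these 3 regions the dKO libraries did not both lie outside the WT libraries. At Ccn2 the single peak began at 24315111 and 24315080 in WT and at 24315229 and 24315224 in dKO, so that both dKO libraries began at least 113 bp closer to the gene. The Ccn2 peak was therefore longer in dKO, with both ends further in the direction of transcription. The 113 bp, like the 244 bp at the far end, was shorter than a fragment of about 300 bp. A domain with dKO further out at one end and WT further out at the other was found in 3.79% of single regions. Regions with WT further out at either end were common, at 54.4%, and 4.34% had it by at least 200 bp. At Ccn1 the other end of the main region overlapped between genotypes, at 145313103 and 145313047 in WT and 145313223 and 145313032 in dKO. At Thbs1 the upstream end of the downstream region also overlapped, at 117937652 and 117937631 in WT and 117937633 and 117937660 in dKO.

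**Figure D3:**
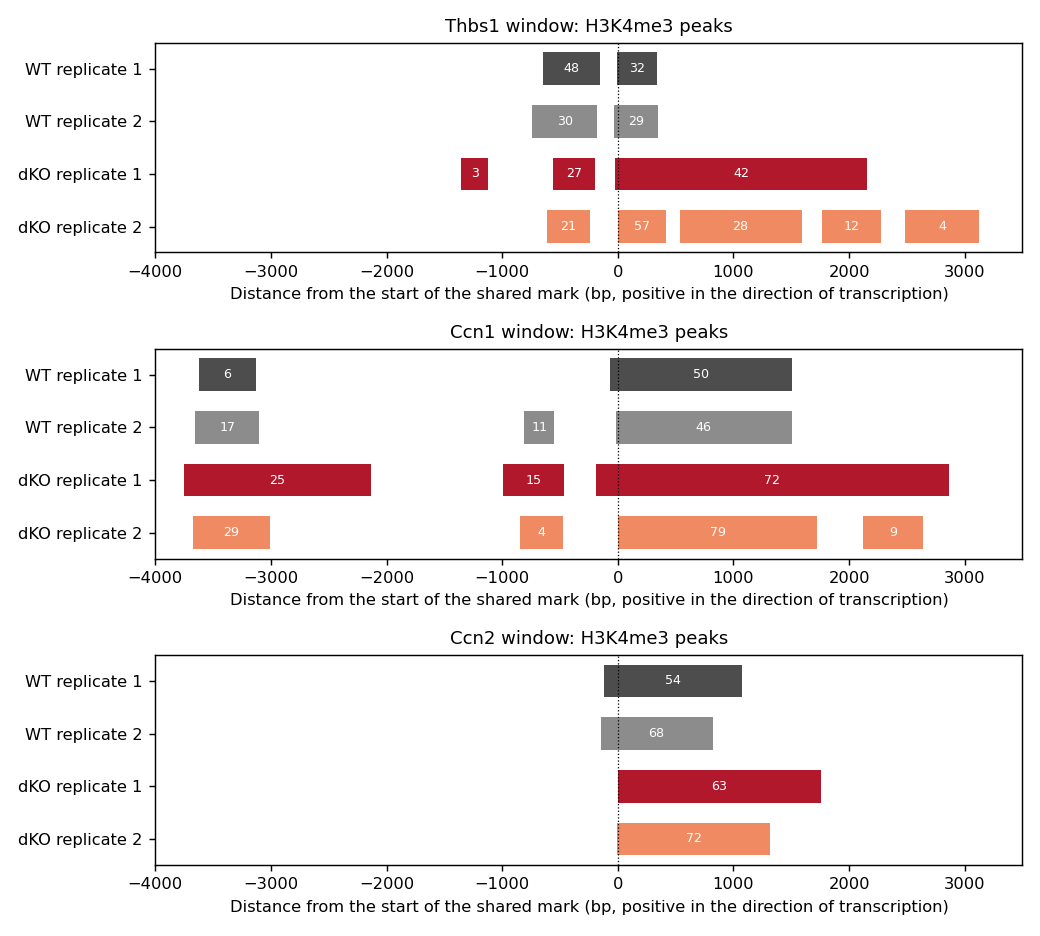
Each bar is a H3K4me3 peak of a library (rows), drawn by distance from the start of the shared mark (horizontal axis, bp, positive in the direction of transcription, dotted line at 0), for the 3 gene windows. Numbers in the bars are the percentile of the peak's score, the share of peaks in its own list with a lower score (tied peaks split evenly). The dKO rows run further right at every gene, to 2158 and 3128 bp at Thbs1 against 337 and 349 bp in WT.

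The mark at Thbs1 was called in 2 parts separated by an unmarked gap, and only the gene-side part was wider in dKO. The gap common to all libraries ran from 117937503 to 117937630, or 128 bp, and within each library it measured 149 and 148 bp for WT and 168 and 242 bp for dKO. These lengths were shorter than a fragment of about 300 bp. In dKO replicate 2, gaps of 119, 172 and 201 bp also lay within the mark downstream of it. The peak upstream of it was narrower in dKO, at 489 and 562 bp for WT and 366 and 367 bp for dKO. Its called ends lay further in for dKO on both sides, by at least 37 bp on the outer side and 18 bp on the side of the gap. Both distances were far shorter than a fragment of about 300 bp. WT was further out at an end in 54.4% of single regions, and both dKO libraries covered less in 41.8% of domains. The share drawn in at both ends was not counted. In WT this upstream peak had the higher score of the 2 parts, and in dKO the peak downstream of the gap had it. The scores were 315 upstream and 170 downstream in WT replicate 1, 144 and 136 in WT replicate 2, 133 and 240 in dKO replicate 1, and 87 and 268 in dKO replicate 2. The order within each library does not depend on the scale of its list.

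In dKO replicate 2 the downstream mark was called as separate peaks, whose scores fell with distance from the gap. They were 268, 112, 56 and 35, at percentiles 56.6, 27.6, 11.6 and 4.21 of that list. The outermost of these, from 117940140 to 117940787, had no counterpart in the other 3 libraries. A peak of 232 bp from 117936307 to 117936538, with percentile 2.56, was likewise found in dKO replicate 1 alone. Both were close to the lowest scores of their lists, and neither was shared by the dKO pair. Thbs1 held 2 peaks in each WT library, 3 in dKO replicate 1 and 5 in dKO replicate 2. The mean difference of 2 peaks became 1 when dKO replicate 2 was left out and 3 when dKO replicate 1 was. Both dKO libraries had more peaks than both WT libraries in 1.34% of domains. With peaks within 1000 bp merged, every library had 1 peak at Thbs1. In the RefSeq table the next gene before Thbs1 is the long noncoding RNA Gm13986, and which part of the mark belongs to which gene was not tested.

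At Ccn1 the mark had a main region and 2 smaller ones away from the gene body. The main region, from 145310172 to 145313223, was unbroken in dKO replicate 1, while in dKO replicate 2 an unmarked 398 bp separated a peak of 516 bp at its far end. That far peak had a score of 49, at percentile 8.97. The main peak next to it had 412, at percentile 78.9. The WT libraries had a single peak there, with no mark in the far part.

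The outermost Ccn1 region, from 145315165 to 145316787, lay more than 3000 bp from the start of the shared mark at its outer end. It covered 491 and 559 bp for WT and 1623 and 664 bp for dKO, so most of the difference in means came from dKO replicate 1. Its score rank was higher in both dKO libraries, an order whose share over single regions was not counted. Its percentiles were 25.2 and 29.5 in dKO against 5.60 and 17.1 in WT. Both dKO libraries passed both WT libraries at its 2 ends, by 89 bp on the gene side and 16 bp on the outer side. Both distances were shorter than a fragment of about 300 bp. The share of single regions with dKO further out at both ends was not counted. The small region between, from 145313497 to 145314025, was absent from the list of WT replicate 1. It covered 262 bp in WT replicate 2, 529 bp in dKO replicate 1 and 377 bp in dKO replicate 2, with percentiles of 10.6, 14.8 and 3.67. Absence from a list means only that no peak passed the caller's threshold. In the RefSeq table the next gene at higher coordinates from Ccn1 is the long noncoding RNA Gm17501, and whether these 2 regions belong to it was not tested. At Ccn2 another long noncoding RNA, Gm15270, overlaps the gene in that table.

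The rank of the strongest peak describes its place in its own list. At Ccn1 the top score was at percentile 50.1 and 45.9 in WT and at 71.7 and 78.9 in dKO. This placed it near the middle of the WT lists and in the upper part of the dKO lists, a difference in means of 27.3 percentile points. With the median score of the window's peaks in place of the highest, that difference was -0.24. At Thbs1 the top score was at percentile 47.8 and 29.9 in WT and 41.6 and 56.6 in dKO, so the genotypes overlapped. The difference in means, 10.3 points, was 1.35 without WT replicate 2, 2.77 without dKO replicate 2, 17.8 without dKO replicate 1 and 19.3 without WT replicate 1. With the median score of the window's peaks it was -10.3, and both dKO libraries then lay below both WT libraries. At Ccn2 the top score was at 53.9 and 67.8 in WT and 62.6 and 71.7 in dKO, again with overlap. The mean percentile at Ccn2 was 60.9 ± 9.88 for WT and 67.1 ± 6.47 for dKO (n = 2, SD). That difference of 6.28 points was -0.71 without WT replicate 1, 1.70 without dKO replicate 2, 10.9 without dKO replicate 1 and 13.3 without WT replicate 2. Whether the genes differ from each other was not tested. A higher percentile in both dKO libraries was seen in 9.82% of domains, Ccn1 among them, and a lower one in 29.4%. At Thbs1 the downstream region alone was at percentiles 32.0 and 28.7 in WT and 41.6 and 56.6 in dKO. The upstream peak was at 47.8 and 29.9 in WT and 27.2 and 21.4 in dKO. The 9.82% and 29.4% are for domains, and no such share was counted for single regions.

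**Figure D4:**
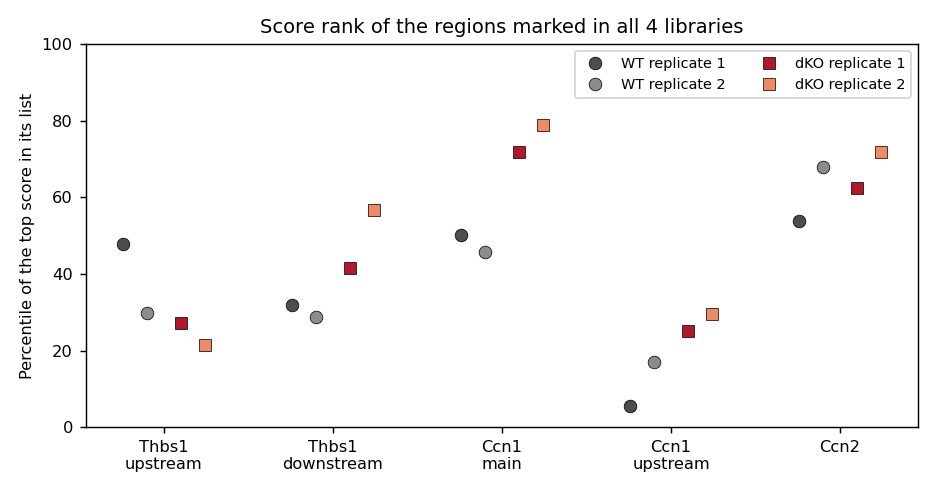
Percentile of the highest score within its own list (vertical axis, 0 to 100) for the 5 regions of the windows marked in all 4 libraries. Circles are WT and squares dKO libraries. Squares lie above circles at the Thbs1 downstream region and at both Ccn1 regions, and overlap with them at Ccn2. They lie below circles at the Thbs1 upstream peak (27.2 and 21.4 against 47.8 and 29.9). How often single regions show either order was not counted.

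The width of each window's widest peak was also placed in its own list. At Thbs1 it was at percentile 24.6 and 27.1 of the widths for WT and at 94.0 and 61.0 for dKO. At Ccn1 the percentiles were 81.0 and 75.5 in WT and 98.7 and 88.3 in dKO, and at Ccn2 they were 65.1 and 49.2 in WT and 85.9 and 75.1 in dKO. In WT the Thbs1 peaks were thus among the narrower ones of their lists, while the Ccn1 peak was already wide. Because these are ranks within lists of different length and content, they describe each list and are no measure of change.

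The bases themselves were compared across libraries. Of the 3770 bp marked at Thbs1 in any library, 1518 bp (40.3%) were marked in both dKO and neither WT library, and 55 bp (1.46%) the reverse. At Ccn1 954 of 5204 bp (18.3%) were in both dKO libraries alone and 0 bp in both WT libraries alone. At Ccn2 244 of 1907 bp (12.8%) were in both dKO libraries alone and 113 bp (5.93%) in both WT libraries alone. Over the lists as a whole the shares were 0.429% and 4.24%, in the opposite order. Bases marked in all 4 libraries made up 17.4% of the marked sequence at Thbs1, 38.3% at Ccn1 and 43.0% at Ccn2, against 66.6% over the lists.

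None of the neighbouring domains was higher in both dKO libraries. Only 3.48% of all domains were, so finding none among so few cannot show that the difference was confined to the windows. Within 250 kb of the windows there were 4 other domains marked in all libraries. The neighbour of Thbs1, from 118198547 to 118200087, covered 1526 and 1380 bp for WT and 1351 and 1068 bp for dKO. The neighbour of Ccn2, from 24431101 to 24432347, covered 1098 and 1149 bp for WT and 971 and 968 bp for dKO. Ccn1 had 2 such neighbours, with 1268 and 1202 bp for WT and 1056 and 977 bp for dKO at the first (145238956 to 145240223), and 1242 and 1433 bp against 1850 and 1286 bp at the second (145421325 to 145423221). Lower values in dKO at 3 of the 4 can be read beside the 41.8% of all domains that were lower in both dKO libraries.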

How the data were processed

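The deposited files are peak lists, 1 for each of the 4 H3K4me3 libraries, with positions and a score per peak. The 4 input libraries were not used here. The submitters' processing notes name MACS2 2.1.1.20160309, the aligner BWA 0.7.12-r1039 and, besides these, bedtools, Picard 2.6.0 and SAMtools, with build mm9. The part each played, the thresholds and the use of input are not given in the sources used here. The scale of the score the authors deposited is not named (lowest value 13 in each list), so it was used only for ranks within a list. Depth is unknown, and peak width and number grow with depth and with signal over background.

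Whole peaks overlapping a window were counted, with starts changed to count from 1. Values were computed in Python 3.11.15 (scipy 1.17.1, numpy 2.4.6, pandas 2.3.3) and plotted with matplotlib 3.10.9. Counting of domains and edges was tested on simulated lists with a single peak per domain and fixed offsets between libraries. Split peaks, missing peaks and replicate noise were not simulated. Members, windows and measures were chosen with earlier results of these data known, and no test was run, because the values compared were those used in the choice. The named genes are the 3 members. The list of other Hippo pathway genes was not used, because the gene table is of build GRCm38.p6. It served for names, neighbours and the Ccn1 sequence only. The alternatives are described in the closing section.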

Additional observations from a re-analysis of the deposited data

How the results depend on the processing

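No paired analysis was possible because no test was run and the labels tie equal replicate numbers to no litter or batch. In dKO the base pairs, the distance from first to last marked base and the reach stayed higher at each of the 3 genes. This held under every alternative that gave a value. With a library left out it was fixed in advance, because groups already apart stay apart. Extending the window or clipping peaks to it changed none of these values. At Ccn2, merging, lists of equal length and leaving out peaks under 500 bp changed none either. With peaks within 1000 bp merged first, the difference at Thbs1 was 2588.5 bp for base pairs and 0 for the number of peaks, that in number at Ccn1 was 0, and that in percentile of the top score at Ccn1 was 31.9. Scaled to list totals, the Thbs1 difference was 2274 bp, and the number of domains higher in both dKO libraries was 3843, not 462. With lists of equal length, the distance from first to last base differed by 2192.5 bp at Thbs1 (2588.5 bp with full lists) and 3094.5 bp at Ccn1 (1318.5 bp), and the Ccn1 percentile by 32.9 (27.3). Without peaks under 500 bp these were 2108.5 bp, 3094.5 bp and 36.2, and WT replicate 1 then had no peak at Thbs1 and no percentile or reach there. With the median score of the window's peaks in place of the highest, the percentile differed by -10.3 at Thbs1 and -0.24 at Ccn1. By that median both dKO libraries lay below both WT libraries at Thbs1, and the groups overlapped at Ccn1. How often domains show either was not counted.

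With a library left out, the number of higher domains was 877 to 2614 (1158 without WT replicate 1, 2149 without WT replicate 2, 877 without dKO replicate 1, 2614 without dKO replicate 2). With a single library in a group the rule is looser, so these numbers cannot be set against that for all libraries. At Thbs1 the difference in base pairs with a library left out ran from 1896 to 2116 bp. It ran from 1078 to 2999 bp at Ccn1 and from 242.5 to 677.5 bp at Ccn2. With 2 libraries a group such a difference moves within the spread by construction, so this is no measure of stability. The number of single regions with dKO further out at an end was 1894, and 41 by at least 200 bp, a distance chosen after the data were seen, as was the point from which the reach was measured.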
